A study of Mus musculus with 6 samples.

Results

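Potassium channels set the resting potential of sensory neurons, end each action potential and limit how often a neuron can fire. A pore is built from several pore-forming subunits, and auxiliary subunits change how it opens and where it sits. Dorsal root ganglia contain sensory neuron somata and the glia around them, and different neuron classes there carry different sets of these channels, and loss of several of them is known to make nociceptors more excitable. The genes described here are the potassium channel family, taken as every gene symbol made of Kcn, letters and a closing number that had at least 10 counts in 3 or more pools. Of 55809 symbols, 92 had such a name and 84 passed the count filter.

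Poly-A selected RNA was sequenced from the dorsal root ganglia of C57BL6J offspring aged 8 weeks. There were 3 prenatal stress pools and 3 control pools, each of 3 mice. The series design gives 9 mice per group, as 3 such pools would hold, while the protocol text gives 3 mice per group. In the prenatal stress group, pregnant dams underwent tube restraint with bright light in 3 daily sessions of 30 min from embryonic day 13 to 18, whereas control dams were left undisturbed. The design text places the start and end slightly later within those days. Both sexes were included according to the labels, which name no sex, litter or cage for a pool, so each p-value reflects only how much these pools vary. Counts in genes were 77.6 M, 65.9 M and 51.7 M in prenatal stress pools 1 to 3 and 69.0 M, 65.0 M and 87.4 M in control pools 1 to 3. Levels are CPM, the counts of a gene scaled to library size with TMM factors.

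The tissue label held, in that neuron markers such as the tubulin Tubb3 and the synaptic protein Snap25 summed to 11338 to 11845 CPM in the prenatal stress pools and 11290 to 11711 CPM in the control pools. Tubb3 alone had 1889, 1960 and 1832 CPM in prenatal stress pools and 2044, 2250 and 2138 CPM in control pools (log2 fold change -0.18 ± 0.05, edgeR adjusted p = 0.297; DESeq2 adjusted p = 0.00551). The 6 nociceptor markers summed to 2088, 2137 and 2145 CPM in prenatal stress pools and 2258, 2496 and 2279 CPM in control pools, without overlap. Of these, 5 were below 0, 0 passed edgeR's test and 4 had an unadjusted p under 0.05 (66.7%, against 11.1% of all genes). The heat channel Trpv1 and the peptide Calca were below 0, and Mrgprd, of nonpeptidergic neurons, was above 0. Calca made up the largest part of the sum, at a mean of 1095 CPM in prenatal stress and 1276 CPM in control. Some pools also carried RNA of neighbouring tissue. The 7 skeletal muscle markers summed to 86.2 to 106 CPM in the prenatal stress pools and to 73.7, 88.5 and 2300 CPM in control pools 1 to 3. The 8 spinal cord and oligodendrocyte markers summed to 56, 343 and 97 CPM in prenatal stress pools 1 to 3 and to 49.4, 250 and 224 CPM in control pools 1 to 3. For some members, log2 fold changes without 1 or more of these pools are also given.

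The family as a whole differed little between the groups. None of the 83 members that could be tested passed edgeR's quasi-likelihood test at an adjusted p under 0.05, where 0.129% of all 20146 genes tested did (0.0844% higher and 0.0447% lower in prenatal stress). The median log2 fold change of prenatal stress over control was 0.03 over the members and 0.01 over all genes, and 47 members (56.6%) were above 0, against 52.3% of all genes, and 36 were below. At an unadjusted p under 0.05 there were 13 members (15.7%) against 11.1% of all genes, with 10 of them higher (12.0%, against 6.01%) and 3 lower in prenatal stress (3.61%, against 5.11%). With the replicate number as a block, 22 members (26.5%) had an unadjusted p under 0.05, against 12.1% of all genes, and 0 passed edgeR's test. The groups did not overlap for 19 members (22.9%) against 18.1% of all genes. Prenatal stress was higher in 14 of these (16.9%, against 9.33% of all genes) and lower in 5 (6.02%, against 8.76%). DESeq2's Wald test called 3 members (3.61%, against 1.64% of all genes). These were Kcng2, Kcnc4 and Kcnh6, all of them higher, where DESeq2 called 0.784% of all genes higher and 0.854% lower.

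Fold sizes were small. Among the 76 tested members with a mean of at least 1 CPM, log2 fold changes ran from -0.34 to 0.49, and 0 members were beyond 0.5 in size, as were 281 of the 15240 genes at that level. The 4 members beyond 0.5, Kcna3, Kcnh4, Kcna10 and Kcnk16, all had a mean under 1 CPM. For Kcnh4 the log2 fold change was -0.58, and -0.17 without control pool 3, the pool with muscle RNA. The part of muscle RNA in this value was not tested. Because whole ganglia were sequenced, fewer cells of a type and less RNA per cell cannot be told apart in any of these values.

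**Figure D1:**
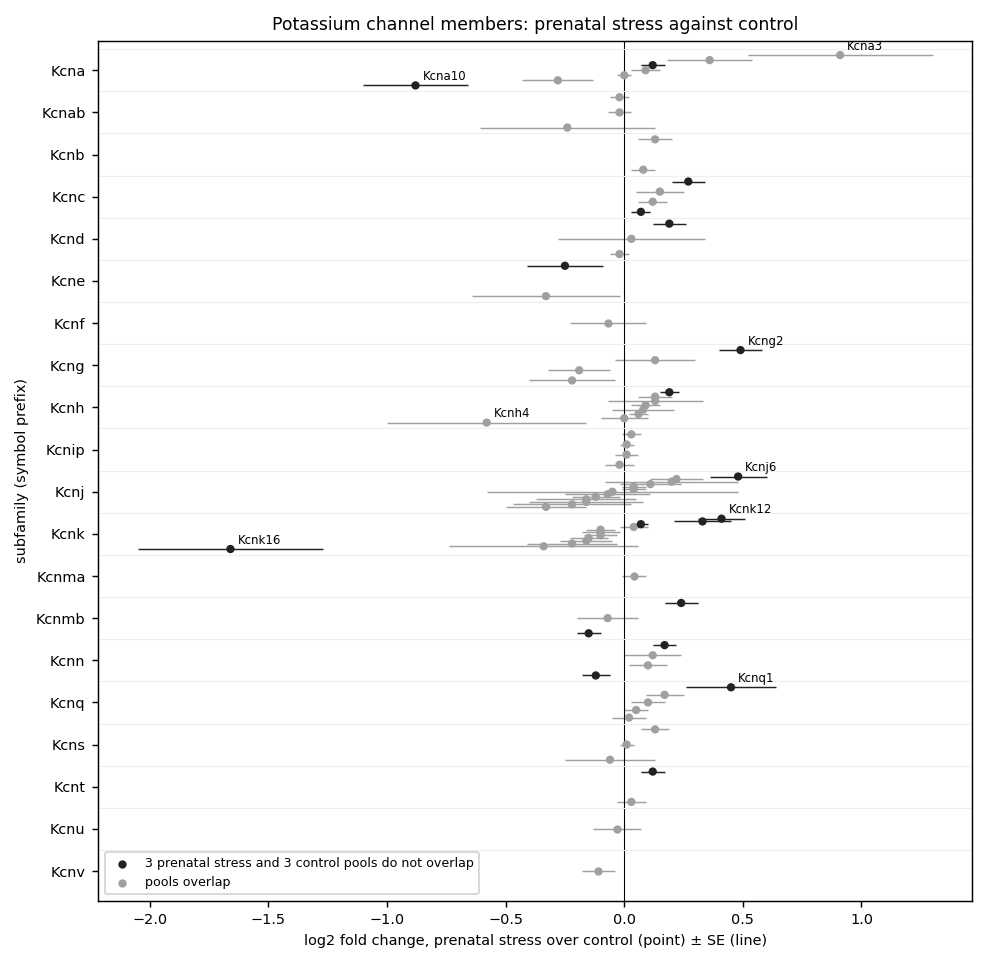
Log2 fold change of prenatal stress over control (points, horizontal axis) with its standard error (lines) for the 83 tested members, by subfamily on the vertical axis. Black points are the 19 members whose 3 prenatal stress pools and 3 control pools do not overlap, and most members lie close to 0, with Kcnk16 at -1.66 and Kcna3 at 0.91 as the extremes.

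The 3 members that DESeq2 called form or modify voltage-gated channels. Kcng2 encodes a silent subunit, which makes no channel alone and changes Kcnb channels when it joins them. It had 5.18, 5.57 and 5.52 CPM in prenatal stress pools 1 to 3, against 3.96, 3.97 and 3.64 CPM in control pools 1 to 3. Every prenatal stress pool was above every control pool. Its log2 fold change was 0.49 ± 0.09 (SE; edgeR adjusted p = 0.18; DESeq2 adjusted p = 0.00842; higher in 3 of 3 pools).

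Kcnh6, a pore of the ERG type that opens slowly and steadies firing, had 59.8, 56.9 and 61.5 CPM in prenatal stress pools and 51.6, 50.2 and 54.3 CPM in control pools. The groups again did not overlap, with a log2 fold change of 0.19 ± 0.04 (edgeR adjusted p = 0.273; DESeq2 adjusted p = 0.0439). Kcnc4, a high-threshold pore that speeds repolarisation in nociceptors, had 85.1, 96.8 and 98.2 CPM in prenatal stress pools and 73.0, 82.8 and 75.9 CPM in control pools. The lowest prenatal stress pool stood just above the highest control pool, and the log2 fold change was 0.27 ± 0.07 (edgeR adjusted p = 0.286; DESeq2 adjusted p = 0.0149). Over 13 other ways of running the test, the adjusted p ranged from 0.00842 to 0.618 for Kcng2, from 0.0439 to 0.634 for Kcnh6 and from 0.0149 to 0.634 for Kcnc4, and only DESeq2's was under 0.05. The nociceptor markers given above were lower in sum in prenatal stress, with Calca the largest part of that sum. Their part in the values of Kcnc4 and the other members known from nociceptors was not tested.

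Of the 3 members higher with DESeq2's test, the start regions of the pores Kcnc4 and Kcnh6 are shown, and that of Kcng2 is not reported here. Each region shown runs from 250 bases before to 50 bases after the annotated start, from RefSeq on build GRCm38.p6, 5′ to 3′ on the gene's strand. Capitals mark matches, on either strand, to the GC box GGGCGG and to the left arm TTCAGCACC and the right arm GGACAGC of the RE1 element, which the repressor REST binds. The RE1 arms were searched after the sequences had been read. The Kcnc4 region is chr3:107458849-107459148 on the minus strand, and the Kcnh6 region is chr11:106007898-106008197 on the plus strand.
Kcnc4: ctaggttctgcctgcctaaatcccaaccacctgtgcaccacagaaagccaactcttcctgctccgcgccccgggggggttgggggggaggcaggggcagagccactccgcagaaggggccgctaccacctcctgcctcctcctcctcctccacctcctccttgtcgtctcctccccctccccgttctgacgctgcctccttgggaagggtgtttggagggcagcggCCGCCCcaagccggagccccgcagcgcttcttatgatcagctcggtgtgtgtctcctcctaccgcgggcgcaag
Kcnh6: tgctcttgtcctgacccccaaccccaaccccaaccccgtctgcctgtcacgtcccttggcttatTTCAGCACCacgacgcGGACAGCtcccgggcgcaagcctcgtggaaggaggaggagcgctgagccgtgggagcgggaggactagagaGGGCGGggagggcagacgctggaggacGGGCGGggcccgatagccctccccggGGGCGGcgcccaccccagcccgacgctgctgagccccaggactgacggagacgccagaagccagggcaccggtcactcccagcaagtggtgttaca
Both regions were rich in G and C, at 66.7% for Kcnc4 and 69.3% for Kcnh6, where the median over all 32817 promoters of the table was 52.7%. A GC box occurred once for Kcnc4 and 3 times for Kcnh6, and 35.6% of all promoters held at least 1, as did 41 of 86 promoters of the 61 members in the table (47.7%). The Kcnh6 region held both RE1 arms, where 0.372% of all promoters held the left arm, 6.56% the right arm and 0.0427% both. Among the 86 member promoters, 11.6% held the right arm. Only 1 (1.16%) held the left arm and only 1 held both, in each case the Kcnh6 region itself. Because the arms were picked after that region had been read, these shares say nothing about the family. The count of both took any order, strand and spacing of the arms within a region, so it does not count whole RE1 elements. Neither region matched the cAMP response element TGACGTCA (1.79% of all promoters), the AP-1 site TGANTCA (7.81%), the E-box CACGTG (7.15%) or the TATA box TATAAA (13.6%). Rest, the gene of REST itself, had 12.4, 12.5 and 12.2 CPM in prenatal stress pools and 12.9, 13.0 and 12.5 CPM in control pools, and its log2 fold change was -0.04 ± 0.05 (edgeR adjusted p = 0.793).

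Levels between members were compared per kilobase of merged exons. The most abundant was Kcnab2, a beta subunit that binds Kcna pores and carries them to the axon, at a mean of 179 CPM per kilobase over the 6 pools. Next came the calcium sensors Kcnip3 (74 CPM per kilobase) and Kcnip4 (62), which bind Kcnd pores, and then the A-type pore Kcnd1 (56.8). The Shaker-type pore Kcna2 (39.6), Kcnip2 (38), Kcna6 (35.7), Kcna1 (34.5), the sodium-activated pore Kcnt1 (33.9) and the leak channel Kcnk1 (31.7) completed the 10 highest. The lowest were Kcna10 (0.135), Kcne2 (0.0699) and Kcnh4 (0.0591). By CPM, 16 members had a mean of 100 or more, 31 of 10 to under 100, 29 of 1 to under 10 and 8 under 1.

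**Figure D2:**
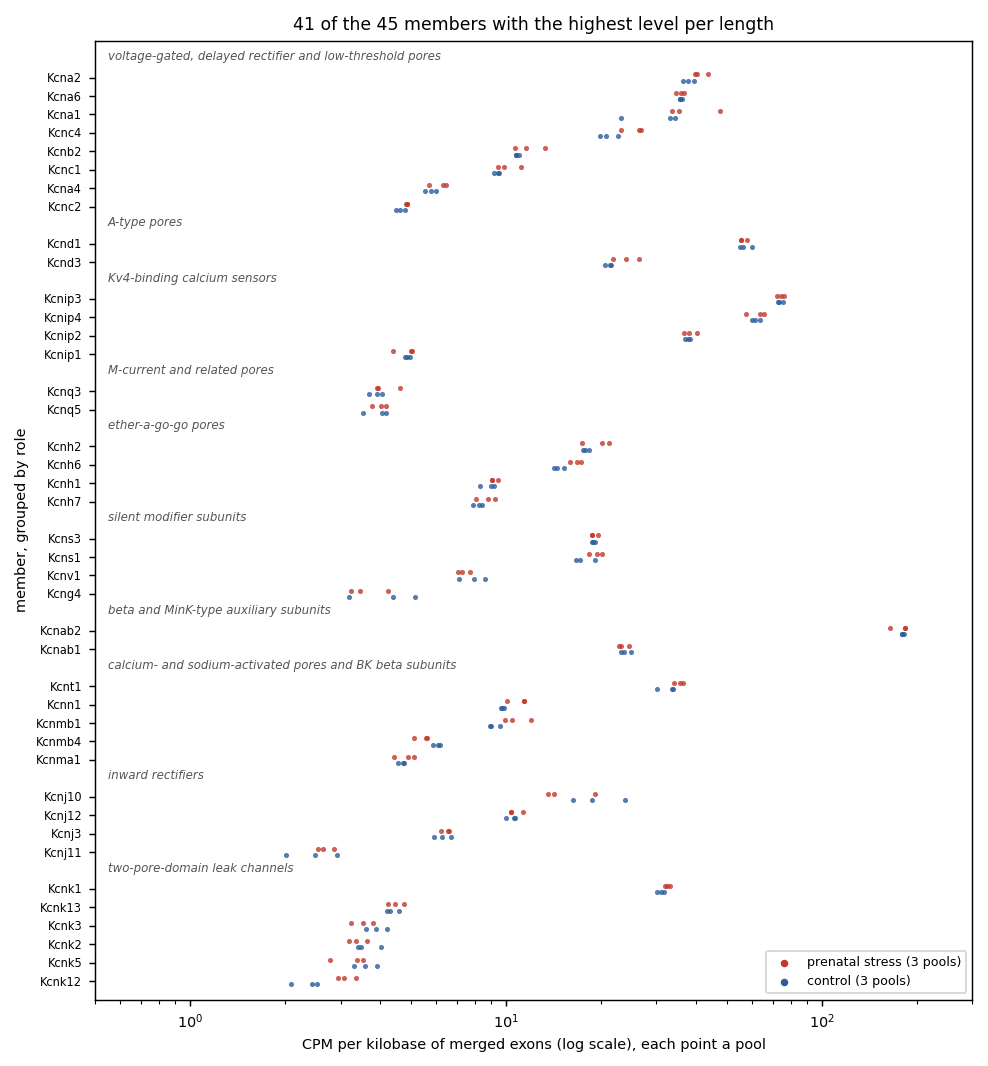
CPM per kilobase of merged exons (horizontal log axis) of 41 of the 45 members with the highest level per length, each point a pool, prenatal stress in red above control in blue, grouped by role. Kcnab2 lies to the right of all others, and within a member the groups lie far closer together than most members lie to each other.

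Shaker-type Kcna pores open near the resting potential and hold down repetitive firing, and those next to the node of Ranvier are mostly Kcna1 and Kcna2. Of 7 Kcna members, 4 were above 0 and 3 below, 0 passed edgeR's test, and the median log2 fold change was 0.09. Kcna2 had 481, 473 and 519 CPM in prenatal stress pools against 434, 471 and 450 CPM in control pools. The groups did not overlap, though prenatal stress pool 2 stood close to control pool 2 (log2 fold change 0.12 ± 0.05, edgeR adjusted p = 0.427). The log2 fold change of Kcna2 was 0.05 with a correction for GC content and length and 0.07 without prenatal stress pool 3. Kcna1 had 169, 160 and 227 CPM in prenatal stress pools against 111, 158 and 164 CPM in control pools. It was highest in prenatal stress pool 3 and lowest in control pool 1, and the groups overlapped (0.36 ± 0.18, edgeR adjusted p = 0.497). Its log2 fold change was 0.18 without prenatal stress pool 3 and 0.20 without control pool 1. The A-type pore of small neurons, Kcna4, had 27.7 to 31.2 CPM in prenatal stress and 26.9 to 29.1 CPM in control, and Kcna6 had 205 to 218 CPM in prenatal stress and 211 to 214 CPM in control.

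The remaining Kcna members were scarce. Kcna3, best known from T lymphocytes, had 0.516, 0.379 and 0.736 CPM in prenatal stress pools and 0.173, 0.231 and 0.436 CPM in control pools, with overlap (0.91 ± 0.39, edgeR adjusted p = 0.453). Leaving out 1 pool gave log2 fold changes for Kcna3 from 0.65 without prenatal stress pool 3 to 1.41 without control pool 3. Kcna10 had 0.194, 0.212 and 0.213 CPM in prenatal stress pools and 0.346, 0.37 and 0.425 CPM in control pools. Its groups did not overlap, at 11 to 15 counts in a prenatal stress pool and 24 to 37 counts in a control pool (-0.88 ± 0.22, edgeR adjusted p = 0.279).

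The delayed rectifiers of the Kcnb and Kcnc subfamilies had log2 fold changes above 0 for 6 of 6 members. Kcnb2, a slow delayed rectifier pore, had 163 to 202 CPM in prenatal stress and 163 to 167 CPM in control (log2 fold change 0.13 ± 0.07, and 0.04 without prenatal stress pool 3). Among the fast Kcnc pores the log2 fold changes included 0.27 for Kcnc4, 0.12 ± 0.06 for Kcnc1 (0.04 without prenatal stress pool 2) and 0.07 ± 0.04 for Kcnc2. Kcnc2 did not overlap between groups, at 34.5, 34.9 and 34.8 CPM in prenatal stress pools and 34.3, 33.0 and 32.1 CPM in control pools, although control pool 1 stood close to the lowest prenatal stress pool.

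A-type Kcnd pores delay the next spike, and the Kcnip calcium sensors bring them to the surface. Kcnd3 had 230, 209 and 254 CPM in prenatal stress pools and 198, 205 and 207 CPM in control pools. Prenatal stress pool 2 stood just above the highest control pool (0.19 ± 0.07, edgeR adjusted p = 0.397), and without prenatal stress pool 3 the log2 fold change was 0.11. Kcnd1 had 294 to 306 CPM in prenatal stress and 291 to 318 CPM in control (-0.02 ± 0.04). The 4 Kcnip members had log2 fold changes of -0.02 to 0.03, with Kcnip3 at 257 to 270 CPM in prenatal stress and 257 to 267 CPM in control, Kcnip4 at 209 to 238 CPM in prenatal stress and 218 to 231 CPM in control, and Kcnip1 at 27.2 to 31.3 CPM in prenatal stress and 29.8 to 30.9 CPM in control.

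Neuronal Kcnq pores carry the M-current, a slow brake on firing that retigabine opens. All 5 Kcnq members were above 0, among them Kcnq1, which is not one of these neuronal pores. The median log2 fold change of the 5 was 0.10, or 0.03 with the correction for GC content and length. Of the 5, 0 passed edgeR's test or had an unadjusted p under 0.05. Kcnq3, a subunit of the neuronal M-channel, had 57.4, 58.0 and 67.8 CPM in prenatal stress and 54.2, 59.7 and 57.5 CPM in control. The groups overlapped, with prenatal stress pool 3 above the other pools (log2 fold change 0.10 ± 0.07). For Kcnq3 it was 0.02 with the GC content and length correction and 0.01 without prenatal stress pool 3. Kcnq5 stood at 0.02 ± 0.07, and at -0.03 with that correction. Kcnq1, a pore of heart and epithelia, did not overlap between groups but stayed near 1 CPM, at 1.07, 0.789 and 0.871 in prenatal stress pools and 0.735, 0.57 and 0.7 in control pools (0.45 ± 0.19, edgeR adjusted p = 0.45).

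Kcnh pores comprise the EAG, ERG and ELK types. Of 8 members, 6 were above 0 and 2 below, and the median log2 fold change was 0.09. Beside Kcnh6, the ERG pores Kcnh2 and Kcnh7 overlapped between groups: Kcnh2 had 98.0, 103 and 84.2 CPM in prenatal stress and 86.1, 85.0 and 89.1 CPM in control (0.13 ± 0.07, and 0.07 without prenatal stress pool 2), and Kcnh7 had 134, 122 and 141 CPM in prenatal stress and 120, 128 and 126 CPM in control (0.09 ± 0.06). Prenatal stress pool 3 was the lowest of the 6 pools for Kcnh2 and the highest for Kcnh7.

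Silent subunits of the Kcnf, Kcng, Kcns and Kcnv groups form no channel alone. Of 9, 4 were above 0 and 5 below, and Kcng2 was the only one with an unadjusted p under 0.05. Kcns1, a subunit linked to pain sensitivity, had 54.8, 52.7 and 49.7 CPM in prenatal stress pools and 51.8, 45.2 and 46.8 CPM in control pools (0.13 ± 0.06, edgeR adjusted p = 0.482). Kcns3 was the steadiest member of the family at 1 CPM or more. It had 59.6, 59.6 and 62.0 CPM in prenatal stress pools and 60.6, 59.2 and 59.8 CPM in control pools (0.01 ± 0.03), with a coefficient of variation of 1.70% over the 6 pools.

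The beta subunits Kcnab1 and Kcnab2 stood at log2 fold changes of -0.02 ± 0.04 and -0.02 ± 0.05. Kcnab2 had 1025, 1027 and 920 CPM in prenatal stress and 1015, 1001 and 1005 CPM in control, and prenatal stress pool 3 was the lowest. The single-pass Kcne subunits were scarce. Kcne4, an inhibitory one, had 2.85, 2.97 and 2.05 CPM in prenatal stress pools and 3.29, 3.05 and 3.05 CPM in control pools, with no overlap (-0.25 ± 0.16, edgeR adjusted p = 0.591), and without prenatal stress pool 3 the log2 fold change was -0.11. Kcne2 had 8, 10 and 4 counts in prenatal stress pools and 14, 6 and 10 in control pools. It was the lowest member inside the count filter and was not tested.

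Calcium- and sodium-activated channels couple firing to ion entry. The big-conductance pore Kcnma1 had 83.1, 75.4 and 86.9 CPM in prenatal stress and 77.3, 80.9 and 80.1 CPM in control (0.04 ± 0.05). Its beta subunits differed in direction. Kcnmb1, known from smooth muscle, had 41.7, 43.9 and 50.2 CPM in prenatal stress pools and 40.1, 37.7 and 37.3 CPM in control pools (log2 fold change 0.24 ± 0.07, edgeR adjusted p = 0.346), and 0.15 without prenatal stress pool 3. Kcnmb4, the neuronal one, had 18.7, 18.6 and 17.1 CPM in prenatal stress pools and 20.5, 19.6 and 20.3 CPM in control pools (-0.15 ± 0.05, edgeR adjusted p = 0.385). Neither gene overlapped between groups. The 8 mural cell markers, which mark the smooth muscle and pericytes where Kcnmb1 is known, summed to 394 to 456 CPM in prenatal stress and 432 to 451 CPM in control, with 7 of 8 below 0. Among them Des, which skeletal muscle also expresses, had 4.04, 4.79 and 4.55 CPM in prenatal stress pools and 3.06, 3.28 and 53.7 CPM in control pools. The part of mural cells in the value of Kcnmb1 was not tested.

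The small-conductance pore Kcnn1, which shapes the pause after a spike, had 52.4, 46.5 and 52.4 CPM in prenatal stress pools and 45.4, 44.8 and 44.4 CPM in control pools. The groups did not overlap, and prenatal stress pool 2 stood nearest the controls (0.17 ± 0.05, edgeR adjusted p = 0.354). Kcnn4, the intermediate-conductance channel, had 9.59, 10.3 and 10.6 CPM in prenatal stress and 10.8, 11.1 and 11.1 CPM in control, with no overlap and a small gap (-0.12 ± 0.06, edgeR adjusted p = 0.515). Kcnn2 and Kcnn3 stood at 0.10 ± 0.08 and 0.12 ± 0.12. The sodium-activated pore Kcnt1 had 337, 323 and 345 CPM in prenatal stress pools and 285, 319 and 322 CPM in control pools. For Kcnt1, prenatal stress pool 2 stood just above control pool 3 (0.12 ± 0.05, edgeR adjusted p = 0.468), the log2 fold change was 0.06 without control pool 1, and Kcnt2 stood at 0.03 ± 0.06.

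Among the 13 inward rectifiers, 6 were above 0 and 7 below. Kcnj10, the main potassium channel of satellite glia, had 76.6, 103 and 73.8 CPM in prenatal stress pools and 88.1, 129 and 102 CPM in control pools. The groups overlapped, with pool 2 the highest of each group (-0.33 ± 0.17, edgeR adjusted p = 0.517). Its log2 fold change was -0.50 without prenatal stress pool 2 and -0.17 without control pool 2. The 8 satellite glia markers summed to 2821, 2962 and 2691 CPM in prenatal stress pools and 3016, 3330 and 3107 CPM in control pools, with 7 of 8 members below 0, and their part in the value of Kcnj10 was not tested. The G-protein-gated pores gave mixed values. Kcnj6 had 1.76, 1.70 and 1.84 CPM in prenatal stress and 1.27, 1.20 and 1.32 CPM in control, with no overlap (0.48 ± 0.12, edgeR adjusted p = 0.294), and Kcnj3 had 32.5 to 34.6 CPM in prenatal stress and 31.0 to 35.0 CPM in control (0.04 ± 0.05). The ATP-sensitive pores Kcnj11 (0.11 ± 0.13) and Kcnj8 (-0.22 ± 0.25) were each highest in control pool 3, the pool with muscle RNA. Without that pool the log2 fold change was 0.25 for Kcnj11 and 0.02 for Kcnj8, and the part of muscle RNA in these values was not tested.

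Leak channels of the Kcnk subfamily, in which each subunit holds a pair of pore domains, carry the resting leak. Of 12, 4 were above 0 and 8 below, and 0 passed edgeR's test. Kcnk18, a leak channel largely limited to sensory neurons that calcineurin activates, had 9.21, 9.60 and 10.1 CPM in prenatal stress pools and 6.26, 8.40 and 8.38 CPM in control pools. Control pool 1 was well under the others, and the groups did not overlap (0.33 ± 0.12, edgeR adjusted p = 0.402). Without control pool 1 the log2 fold change of Kcnk18 was 0.20. Kcnk12 had 5.80, 6.05 and 6.6 CPM in prenatal stress pools and 4.12, 4.99 and 4.81 CPM in control pools, with no overlap (0.41 ± 0.10, edgeR adjusted p = 0.29). Its longest transcript is 69.4% G and C, and with the correction for GC content and length its log2 fold change was 0.06. Its relative Kcnk13, a channel of glia and microglia, stood at 0.04 ± 0.06.

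The mechanically gated leak channels Kcnk2, Kcnk4 and Kcnk10 stood at log2 fold changes of -0.10 ± 0.08, -0.10 ± 0.07 and -0.10 ± 0.06, and all 3 overlapped between groups. Kcnk2 had 16.6, 18.0 and 15.7 CPM in prenatal stress and 19.9, 17.3 and 16.8 CPM in control. The acid-sensitive Kcnk3 had 14, 15.1 and 12.9 CPM in prenatal stress and 16.7, 14.3 and 15.5 CPM in control (-0.15 ± 0.08). Kcnk1, the most abundant leak channel per length, had 71.4, 73.9 and 72.5 CPM in prenatal stress pools and 70.5, 67.5 and 69.3 CPM in control pools, with no overlap and a log2 fold change of 0.07 ± 0.03 (edgeR adjusted p = 0.478). Kcnk16, known from the pancreas, had the lowest fold of the family but few counts, at 22, 15 and 4 in prenatal stress pools and 44, 33 and 69 in control pools (-1.66 ± 0.39, edgeR adjusted p = 0.273). Every prenatal stress pool was below every control pool. Leaving out 1 pool gave log2 fold changes for Kcnk16 of -2.03 to -1.34, with -1.48 without control pool 3.

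**Figure D3:**
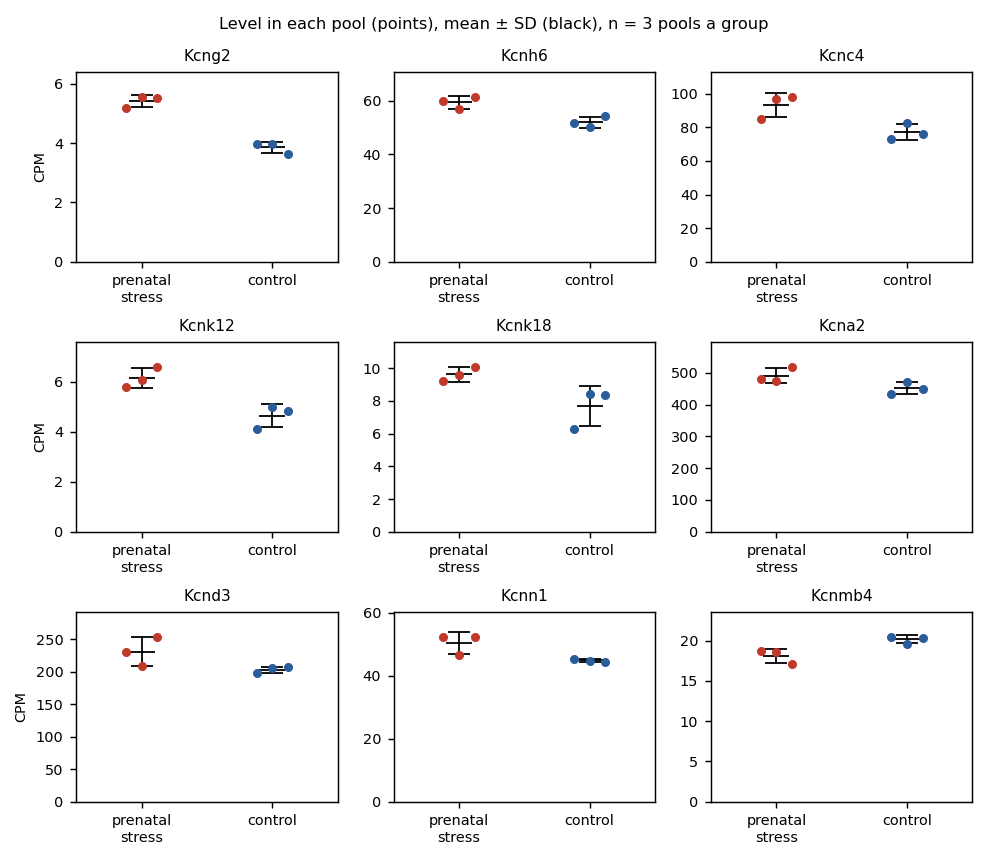
CPM (vertical axes, starting at 0) of 9 members in each pool (points), prenatal stress left of control, with the mean and SD of 3 pools in black. None of the 9 overlaps between groups, and the gaps are small for Kcna2 and Kcnd3.

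Summed over subfamilies, the ratio of group means ran from 0.831 for Kcne to 1.12 for Kcnc. All 84 members together summed to 5954, 5945 and 6049 CPM in prenatal stress pools and 5596, 5866 and 5777 CPM in control pools. Kcnc members summed to 324, 371 and 320 CPM in prenatal stress and 296, 309 and 300 CPM in control. Kcna members summed to 889, 881 and 994 CPM in prenatal stress and 788, 875 and 857 CPM in control. For Kcnc, Kcna, Kcnh, Kcnn and Kcnt the prenatal stress sums all stood above the control sums. Their ratios of group means were 1.12, 1.10, 1.08, 1.08 and 1.08. For Kcne the prenatal stress sums all stood below, at 3.45, 3.55 and 2.71 CPM in prenatal stress pools and 4.41, 3.57 and 3.69 CPM in control pools. Kcnt members summed to 353, 338 and 361 CPM in prenatal stress and 300, 335 and 337 CPM in control. The gaps between groups were narrow for Kcna, Kcnt and Kcne. Most of the Kcnt sum was Kcnt1, and most of the Kcna sum was Kcna1 and Kcna2. How often sums over other genes would not overlap was not computed. Kcnj members summed to 185, 213 and 174 CPM in prenatal stress and 193, 232 and 206 CPM in control, a ratio of 0.906 with overlap. Kcnk (0.996), Kcnip (1.01) and Kcnab (0.983) were near level.

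**Figure D4:**
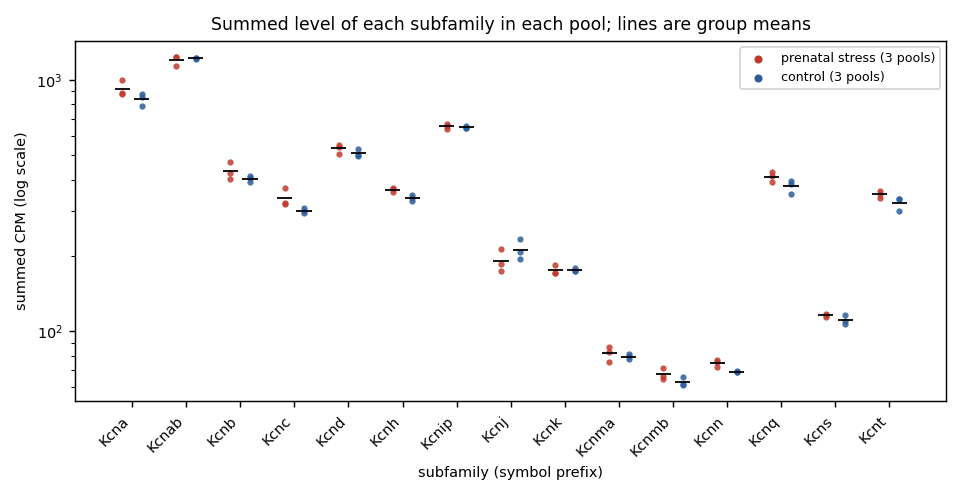
Summed CPM (vertical log axis) of the subfamilies with a control mean of at least 50 CPM, each point a pool, prenatal stress in red left of control in blue, with lines at the group means. The prenatal stress points lie above the control points for Kcna, Kcnc, Kcnh, Kcnn and Kcnt, narrowly so for Kcna and Kcnt. The groups overlap for the other subfamilies shown.

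Some members were highest in both pools numbered 2, where the spinal cord markers were also highest. Kcnk9, an acid-sensitive leak channel abundant in the central nervous system, had 4.27, 9.36 and 5.42 CPM in prenatal stress pools and 4.29, 11.9 and 8.03 CPM in control pools. Kcnab3, a beta subunit, had 3.62, 6.36 and 3.00 CPM in prenatal stress and 3.39, 7.63 and 4.34 CPM in control. Kcnd2, the A-type pore of central neurons, had 2.81, 5.26 and 3.31 CPM in prenatal stress and 2.46, 4.99 and 3.71 CPM in control. Across all pools, Kcnd2 ran in the same order as the spinal cord marker sums. For Kcnk9 the order differed from that of the sums only between the 2 lowest and between the 2 highest pools. Kcnab3 was lowest in prenatal stress pool 3 and well under its control pool 2 level in control pool 3. The coefficients of variation were 42.7% for Kcnk9, 39.3% for Kcnab3 and 30.5% for Kcnd2. Both pools numbered 2 were the highest pair for 10 of 83 members (12.0%, against 7.18% of all genes), among them also Kcnj9, Kcnj16 and Kcnj10. Spinal cord RNA was not tested as a source of these transcripts. Without both pools numbered 2, log2 fold changes were -0.35 for Kcnk9, -0.22 for Kcnab3 and -0.01 for Kcnd2, against -0.34, -0.24 and 0.03 with all pools. Leaving out 1 pool moved them further, to -0.74 without prenatal stress pool 2 and 0.03 without control pool 2 for Kcnk9. For Kcnab3 these values were -0.63 and 0.16, and for Kcnd2 they were -0.28 and 0.29. Kcnj15, an inward rectifier, was instead high in the pools numbered 1, at 2.39, 1.44 and 0.891 CPM in prenatal stress and 3.01, 1.00 and 0.929 CPM in control, and had the largest coefficient of variation of any member at 1 CPM or more (55.2%).

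**Figure D5:**
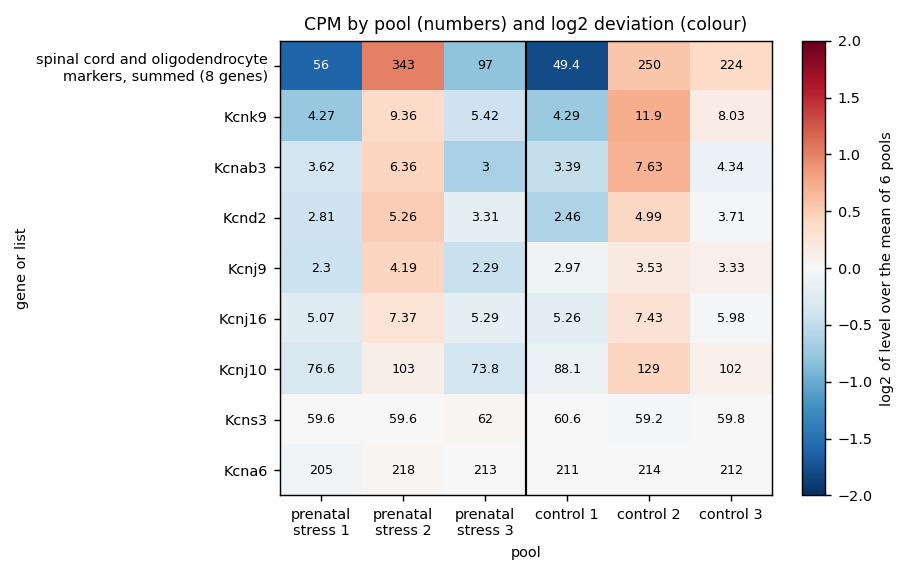
CPM in each pool (numbers) and log2 deviation from the mean of 6 pools (colour) for the summed spinal cord and oligodendrocyte markers and 8 members, with prenatal stress pools left of the line and control pools right of it. Kcnk9, Kcnab3 and Kcnd2 are highest in both pools numbered 2, while Kcns3 and Kcna6 are nearly level.

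Genes that work with potassium channels were examined beside them. Of 29 tested channel partners, 22 were above 0, 7 were below, 0 passed edgeR's test and 4 had an unadjusted p under 0.05 (median log2 fold change 0.04). That is 75.9% above 0 and 13.8% at an unadjusted p under 0.05, against 52.3% and 11.1% of all genes. Sptbn4, the spectrin that with ankyrin anchors Kcnq channels at the axon initial segment, had 54.7, 60.2 and 54.4 CPM in prenatal stress pools and 40.9, 44.8 and 48.3 CPM in control pools. The groups did not overlap (0.34 ± 0.07, edgeR adjusted p = 0.234; DESeq2 adjusted p = 0.0013). Nedd4l, a ubiquitin ligase that removes Kcnq channels from the membrane, had 314, 320 and 321 CPM in prenatal stress and 305, 303 and 299 CPM in control (0.07 ± 0.03, edgeR adjusted p = 0.403). Cntnap2, which gathers Kcna pores beside the node, had 234, 229 and 240 CPM in prenatal stress and 216, 221 and 227 CPM in control (0.08 ± 0.03, edgeR adjusted p = 0.437). The Kcnd partners Dpp6 (0.03 ± 0.03) and Dpp10 (0.12 ± 0.06) overlapped between groups.

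Of 15 potassium pumps and cotransporters, 5 were above 0, 10 were below, 0 passed edgeR's test and 2 had an unadjusted p under 0.05 (median log2 fold change -0.02), or 33.3% above 0 and 13.3% at that p against the same shares of all genes. Fxyd1, a regulator of the sodium-potassium pump, had 36.5, 33.7 and 31.8 CPM in prenatal stress pools and 40.8, 37.8 and 41.6 CPM in control pools, with no overlap (-0.24 ± 0.06, edgeR adjusted p = 0.29; DESeq2 adjusted p = 0.0354). The cotransporter Slc12a7 had 41.5, 36.4 and 38.6 CPM in prenatal stress and 35.1, 34.5 and 35.3 CPM in control (0.15 ± 0.05, edgeR adjusted p = 0.378). Of the 12 nerve injury genes examined, 4 were lower with edgeR's test, where 0.0447% of all genes were. This list was chosen with earlier results of these data known. Its median log2 fold change was -0.53, beside which the median was 0.03 for the potassium channels and 0.01 for all genes.

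Some values carry a limit from shared sequence. The annotation places 49.1% of the exon bases of Kcnj13 over the abundant gene Gigyf2 on the other strand, 39.6% of those of Kcna6 over the antisense transcript Gm26673, 31.1% of those of Kcnj3 over Gm26794 and 20.8% of those of Kcnmb4 over Kcnmb4os2. Kcnk4 shares 13.1% of its exon bases with Catsperz on the same strand. Reads that fit more than 1 gene were set aside in counting, at 1.63% to 1.69% of each file. Whether counting used strand is not stated in the labels, so how the reads of these pairs were counted is not known.

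Of the 8 names outside the count filter, Kcnk7 came closest, with 14, 6 and 2 counts in prenatal stress pools and 4, 7 and 9 in control pools. Kcna7, a pore of heart and skeletal muscle, had 3, 5 and 4 counts in prenatal stress pools and 6, 3 and 128 in control pools, the last being the pool with muscle RNA. Kcnj1, Kcnj5, Kcne1, Kcnk15, Kcnmb3 and Kcnv2 had 0 to 6 counts in every pool.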

How the data were processed

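The authors deposited raw counts of reads per gene symbol, 1 file per library. FastQC, STAR 2.4 and HTSeq 0.9.1 and the builds GRCm39 and mm10 are named in the submitters' processing notes; neither the build nor the strand setting of the counting could be taken from the labels. Reads given to no gene (15.3% to 16.2% of each file) were left out. The main test, over every gene, used edgeR 4.0.16 under R 4.3.3 (TMM, filterByExpr with a minimum count of 10, quasi-likelihood F test, Benjamini-Hochberg adjustment over 20146 genes), which gave every adjusted p unless DESeq2 1.42.0 is named. The standard error is the log2 fold change divided by the square root of F. Exon lengths, GC content and overlaps came from GENCODE M21.

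The members and lists were chosen with earlier results of these data known. Named members were the 6 highest and 6 lowest folds among members of at least 1 CPM whose groups do not overlap, the 6 smallest p, the 3 highest and 3 lowest levels per length, members just inside and outside the count filter, and a list known in sensory ganglia. Of the other lists, the 3 genes of smallest p are named. Other members and genes (Kcna3, Kcnq1, Kcnab3, Kcnd2, Kcnj15, Rest, Dpp6, Dpp10 and the rest) were named after their values were seen. Some genes that the rule would name are not reported here. Deviations of same-numbered pools from their group means correlated across genes at 0.337, 0.218 and 0.13. Pools of unlike number gave -0.3 to 0.122, the highest for prenatal stress pool 2 with control pool 3, so pairing by number is not established. What a number stands for is not in the labels. The replicate block changed no member's call. Precision is limited by 3 pools a group.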

Additional observations from a re-analysis of the deposited data

How the results depend on the processing

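Results were recomputed under 13 alternatives. No member passed edgeR's test in the 12 of these that used edgeR, and DESeq2's Wald test called 3, at log2 fold changes of 0.49 for Kcng2, 0.27 for Kcnc4 and 0.19 for Kcnh6. The number of all genes called was 49 with no low-count filter, 330 with DESeq2, 1 without both pools numbered 2, and 2 to 14 when 1 pool was left out, against 26 with all pools. With the replicate block, which pairs pools of the same number, 22 members (26.5%, against 12.1% of all genes) had an unadjusted p under 0.05 and the Kcnj median log2 fold change was 0.02, and the block changed no member's call. Leaving out 1 pool in turn gave 11 to 23 members at an unadjusted p under 0.05 (13.1% to 27.7%, against 7.75% to 12.3% of all genes), and medians of 0.00 to 0.04 over all members, -0.03 to 0.19 for Kcnd and -0.03 to 0.05 for Kcnj. Of 637 values of 49 named members, 610 kept their direction and side of the threshold, and 24 in 14 members had the other direction. Where a value or the main value rounded to 0.00, the direction was counted as kept. Without both pools numbered 2, log2 fold changes were 0.03 for Kcnab1, 0.02 for Kcnd1, -0.01 for Kcnip3 and -0.07 for Kcnj11. With the GC content and length correction they were -0.03 for Kcnma1, -0.03 for Kcnq5 and -0.02 for Kcnt2. Leaving out 1 pool gave -0.05 to 0.06 for Kcnq5, -0.06 to 0.01 for Kcnab1, -0.05 to 0.01 for Kcnd1, -0.02 to 0.25 for Kcnj11, -0.74 to 0.03 for Kcnk9 and -0.03 to 0.06 for Kcnip4. It gave -0.44 to 0.02 for Kcnj8, -0.01 to 0.06 for Kcnt2, -0.01 to 0.03 for Kcnip3, -0.01 to 0.07 for Kcnk13, -0.06 to 0.02 for Kcnab2, -0.06 to 0.04 for Kcnip1, -0.01 to 0.09 for Kcnma1 and -0.01 to 0.02 for Kcns3. The cause of these differences was not tested. Members under 1 CPM rest on few counts.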

Other observations

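Some transcripts have a Kcn name that does not end in the letters and number of the rule, among them antisense and other noncoding RNAs. Kcnd3os, antisense to Kcnd3, had 0.723, 0.713 and 0.775 CPM in prenatal stress pools and 0.577, 0.555 and 0.493 CPM in control pools. Its groups did not overlap (log2 fold change 0.44 ± 0.16, edgeR adjusted p = 0.397). Kcnmb4os2, antisense to Kcnmb4, had 0.465, 0.364 and 0.387 CPM in prenatal stress pools and 0.562, 0.616 and 0.528 CPM in control pools, with no overlap (-0.48 ± 0.19, edgeR adjusted p = 0.431). Each stood on the same side as its partner, and how reads of the pairs were counted where their exons overlap is not known. Kcnq1ot1, the noncoding RNA of the Kcnq1 imprinted region, had 10.0, 10.5 and 10.1 CPM in prenatal stress and 10.4, 9.27 and 9.06 CPM in control, and the groups overlapped.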
